A study of Mus musculus with 18 samples.

Results

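Liver RNA was examined for the DnaJ co-chaperone family, defined as every gene whose mouse symbol begins with *Dnaja*, *Dnajb* or *Dnajc* followed by a number, leaving out *Dnaja1*, *Dnajb1* and pseudogenes. The rule found 43 of the 22524 genes counted, of which 3 belong to class A, 12 to class B and 28 to class C. The samples were livers of 10 female A226Y mice and 8 female WT mice, all 15 months old and on the C57BL/6 strain, with 1 library per mouse. A226Y mice are heterozygous for *Rps2*-A226Y, a change in a protein of the small ribosomal subunit that lowers the accuracy of translation. WT mice carry the same CMV-Cre transgene, which expresses Cre recombinase in all tissues, and an unaltered *Rps2*. The paper describes the A226Y animals as mosaics: besides recombined cells that express the mutant allele, they keep cells in which the targeted allele is still silenced by its *loxP*-flanked stop cassette, so that *Rps2* is haploinsufficient there. A separate *Rps2*-loxP group was not analysed here.

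DnaJ proteins share the J domain, which binds an Hsp70 chaperone and makes it hydrolyse ATP, so that Hsp70 closes on an unfolded client. Each J-domain protein brings Hsp70 to a place or a client, while nucleotide exchange factors let the client go again. Classes A and B hold general folding factors that resemble bacterial DnaJ, with and without its zinc-binding region, and class C holds the more specialised rest. In the endoplasmic reticulum (ER), which in hepatocytes folds most of the plasma proteins, the Hsp70 is BiP, encoded by *Hspa5*. The unfolded protein response (UPR) raises BiP together with several ER J-domain proteins through short promoter elements, and cytosolic members answer to heat shock elements. The comparison of A226Y with WT asks how a liver with error-prone translation sets the level of these co-chaperones.

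Total counts were between 23850565 and 62126131 per mouse in A226Y and between 25869192 and 34918732 in WT, and levels are given as CPM (reads of a gene per 1000000 counted, with library sizes adjusted by TMM). *Rps2* itself was measured at 46.9 to 83.0 CPM in the A226Y mice and at 103.9 to 143.1 CPM in the WT mice, without overlap. The counts do not separate its 2 alleles. Hepatocyte markers were abundant in every mouse, with *Alb* at 48040 CPM or more. Of 45 marker genes of hepatocytes and 8 other cell types, 38 were tested. At adjusted p < 0.05, *Cps1* and *Tat* (hepatocyte) and *Cidec* (adipocyte list, also made by fatty hepatocytes) were higher in A226Y. *Clec4f* (Kupffer cells) and *Col1a1* (fibroblasts) were lower. Of all tested genes, 7.27% were higher and 7.03% lower. Fold changes were positive for 4 of 5 hepatocyte markers, 1 of 5 Kupffer markers (*Marco*, log2 0.83) and 2 of 5 fibroblast markers (*Dcn* at 0.18), and negative for the others. The called markers thus do not stand for their cell types. The summed Kupffer and macrophage markers were 188.5 to 846.8 CPM in A226Y (median 268.6) and 288.3 to 604.0 CPM in WT (median 438.2). The part of these markers in the members' values was not tested. In whole liver, fewer cells of a type and less RNA per cell cannot be told apart.

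Of the 43 members, 37 were tested, having 10 counts or more in 50% or more of the A226Y or of the WT mice. The other 6 were *Dnajb3*, *Dnajb7*, *Dnajb8*, *Dnajc5b* and *Dnajc5g*, which are known from testis, and *Dnajc6*, the neuronal auxilin. None of these had more than 12 counts in any mouse, and *Dnajc5b* and *Dnajc5g* had 0 counts in all 18 mice, which allows up to 3 counts per library.

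The promoters of 4 ER members are shown because the UPR acts through sequences of this kind and because 3 of the 4 genes differed between the genotypes. The stretches run from 250 bases before the RefSeq start site to the first 25 transcribed bases, read from the GRCm38.p6 promoter table, 5′ to 3′ on the strand of the gene. They are chr16:22857595-22857869 on the plus strand for *Dnajb11*, chr14:118937682-118937956 on the plus strand for *Dnajc3*, chr2:80315216-80315490 on the plus strand for *Dnajc10*, and chr12:44210044-44210318 on the minus strand for *Dnajb9*. Capitals mark matches to the ER stress elements described after the sequences.
Dnajb11: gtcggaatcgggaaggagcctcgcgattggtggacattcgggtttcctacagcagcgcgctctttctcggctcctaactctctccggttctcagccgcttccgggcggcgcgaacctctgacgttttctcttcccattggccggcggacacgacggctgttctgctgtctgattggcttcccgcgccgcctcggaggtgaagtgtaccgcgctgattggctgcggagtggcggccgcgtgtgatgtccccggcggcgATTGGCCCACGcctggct
Dnajc3: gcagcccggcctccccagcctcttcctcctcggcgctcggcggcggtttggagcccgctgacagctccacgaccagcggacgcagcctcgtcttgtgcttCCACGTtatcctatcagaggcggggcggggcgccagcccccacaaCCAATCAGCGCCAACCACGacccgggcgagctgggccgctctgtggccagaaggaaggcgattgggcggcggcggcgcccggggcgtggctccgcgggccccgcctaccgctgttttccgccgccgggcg
Dnajc10: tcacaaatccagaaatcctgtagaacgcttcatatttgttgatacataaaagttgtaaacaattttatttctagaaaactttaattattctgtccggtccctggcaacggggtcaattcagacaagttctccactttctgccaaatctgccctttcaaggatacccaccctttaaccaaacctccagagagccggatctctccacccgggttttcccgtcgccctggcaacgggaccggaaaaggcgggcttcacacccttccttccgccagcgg
Dnajb9: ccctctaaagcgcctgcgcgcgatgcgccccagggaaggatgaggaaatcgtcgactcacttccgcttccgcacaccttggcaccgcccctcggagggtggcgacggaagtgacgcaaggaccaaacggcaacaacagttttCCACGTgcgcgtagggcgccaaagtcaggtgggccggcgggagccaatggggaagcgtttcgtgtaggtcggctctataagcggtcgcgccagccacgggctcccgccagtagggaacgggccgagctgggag

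Promoter windows of 250 bases before and 50 bases after the start were found for 35 of the 43 members. The motifs were searched on both strands, and positions count from the first transcribed base as 0. The ER stress element ERSE, read as CCAAT, then 9 bases of any kind, then CCACG, was present at −105 to −87 of *Dnajc3* and in no other member, against 0.119% of all 32851 windows. Its relative ERSE-II, ATTGG, 1 base of any kind and CCACG, was present in *Dnajb11* at 7 to 17 bases after the first transcribed base, and in 0.0365% of all windows. The UPR core ACGTGG was found in *Dnajb9*, *Dnajc3*, *Dnajc25* and *Dnajc8* and in 8.31% of all windows. In *Dnajc3* it lies apart from the ERSE, at −150 to −145. *Dnajc10* held none of these. A heat shock element, written as GAA, 2 bases, TTC, 2 bases, GAA, was found in *Dnajb6* alone of the members and in 0.603% of all windows, and the amino acid response element TGATGCAA in no member and in 0.895% of all windows. The matches describe these letters in this window, and no binding was measured.

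Across the family, 8 of the 37 tested members were higher in A226Y mice and 0 were lower at adjusted p < 0.05 (edgeR quasi-likelihood test, Benjamini-Hochberg over all 13353 genes tested). The 8 were *Dnaja4*, *Dnaja2*, *Dnajb11*, *Dnajc2*, *Dnajc3*, *Dnajc5*, *Dnajc10* and *Dnajc21*. They make up 21.6% of the tested members, while 7.27% of all tested genes were higher and 7.03% were lower. The count moved with the fit. With an offset for the GC content of each gene it was 3 members (8.11%, close to the 6.14% of all genes in that fit), and with 4 surrogate variables, which stand for unlabelled differences between libraries estimated from the counts, it was 1 (2.70%, beside 0.839% of all genes). Without mouse 14 or mouse 24 of WT it was 5 (13.5%), while the share of all genes called higher fell to 4.75% and 4.81%. At an unadjusted p < 0.05, 14 members were higher and 1, *Dnajb6*, was lower, which for the higher members is 37.8%, with 14.9% of all genes higher and 14.7% lower. The median log2 fold change of the tested members was 0.05, beside −0.00443 over all genes tested, and 23 members had positive and 14 negative fold changes. All members past the adjusted threshold were therefore higher in A226Y, and the middle of the family lay close to that of all genes. No member had A226Y and WT values that were free of overlap in the upward direction, where 0.352% of all genes did, and none in the downward direction, where 0.285% did, so that 0 of 37 members is what such shares would give.

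**Figure D1:**
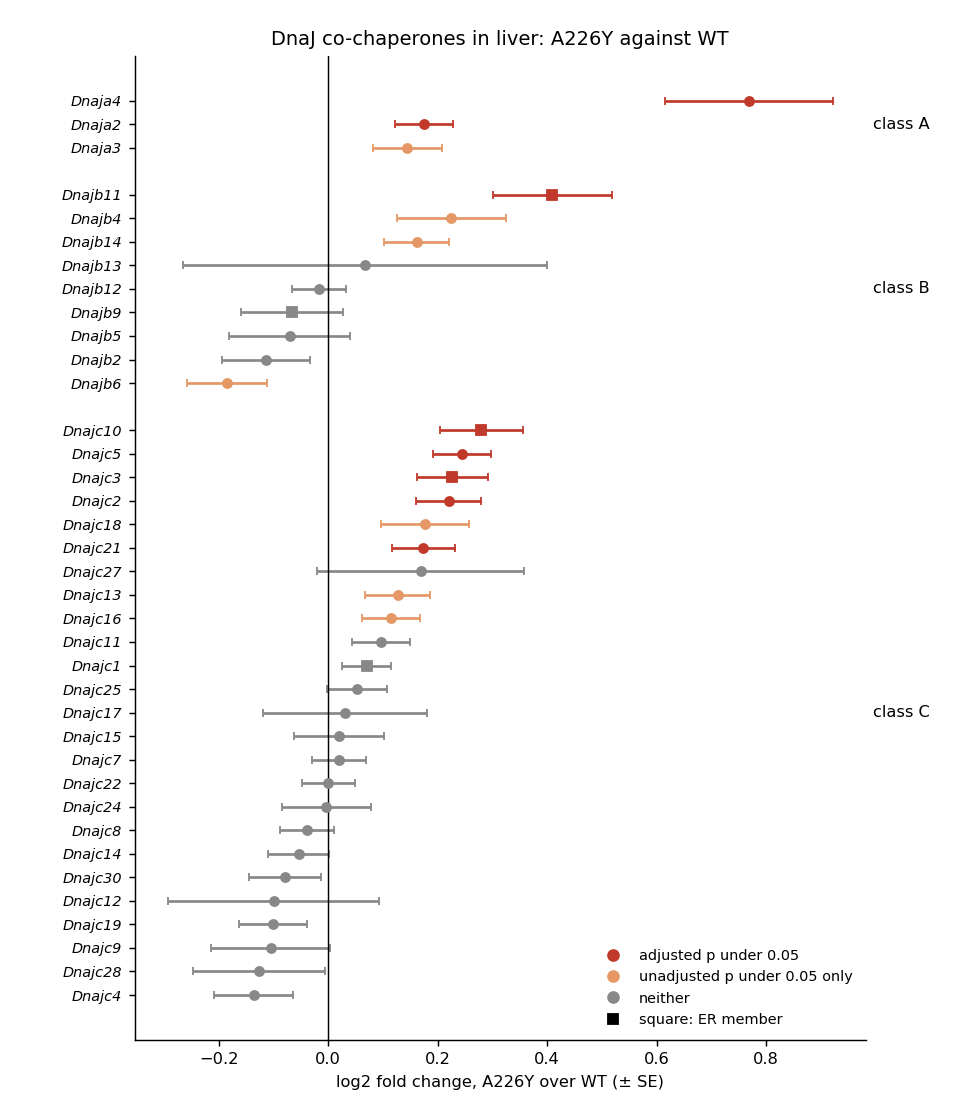
Log2 fold change of each of the 37 tested members, A226Y over WT, with its standard error, ordered within classes A, B and C. The 8 members in red, among them 3 of the 5 ER members drawn as squares, lie to the right of 0, and *Dnaja4* lies farthest from it at 0.77.

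By class, 2 of 3 class A members, 1 of 9 tested class B members and 5 of 25 tested class C members were called higher, beside 7.27% of all genes. With the GC offset 1 member of each class was called higher, and with 4 surrogate variables 1 of class C alone. All 3 class A members had an unadjusted p < 0.05, beside 14.9% of all genes. Medians of the log2 fold change were 0.18 in class A, −0.02 in class B and 0.03 in class C. The summed level of class A was between 309.5 and 361.5 CPM in A226Y (median 326.1) and between 264.4 and 326.4 CPM in WT (median 289.7). Class B was at 316.1 to 422.6 CPM in A226Y (median 352.5) and 307.7 to 370.5 CPM in WT (median 328.6). Class C carried most of the family's reads, at 953.2 to 1067 CPM in A226Y (median 1002) and 903.6 to 981.2 CPM in WT (median 935.2). Summed over all 43 members, the A226Y mice ranged from 1580 to 1840 CPM (median 1688) and the WT mice from 1514 to 1611 CPM (median 1560). In this sum all A226Y mice but mouse 3 were above the highest WT mouse. The ranges overlapped in each of these sums.

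By compartment, the calls fell in the ER (3 of 5 members), among the cytosolic and nuclear folding factors (2 of 7), on the ribosome and its assembly path (2 of 3) and on vesicles and endosomes (1 of 2 tested), beside 7.27% of all genes. With the GC offset the counts were 1 of 5, 1 of 7, 0 of 3 and 1 of 2, and with 4 surrogate variables the sole call was in the ER. No member was called among the 4 ER membrane proteins with a cytosolic J domain, the 5 mitochondrial members, the 3 nuclear members of splicing and histone handling, or the 7 members outside these lists, and DESeq2 and limma-voom called none of these either. At an unadjusted p < 0.05, 2 of those 4 membrane proteins and 1 of the 5 mitochondrial members were higher, beside 14.9% of all genes. With so few members in a list, these shares describe the lists and were not tested against each other.

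**Figure D2:**
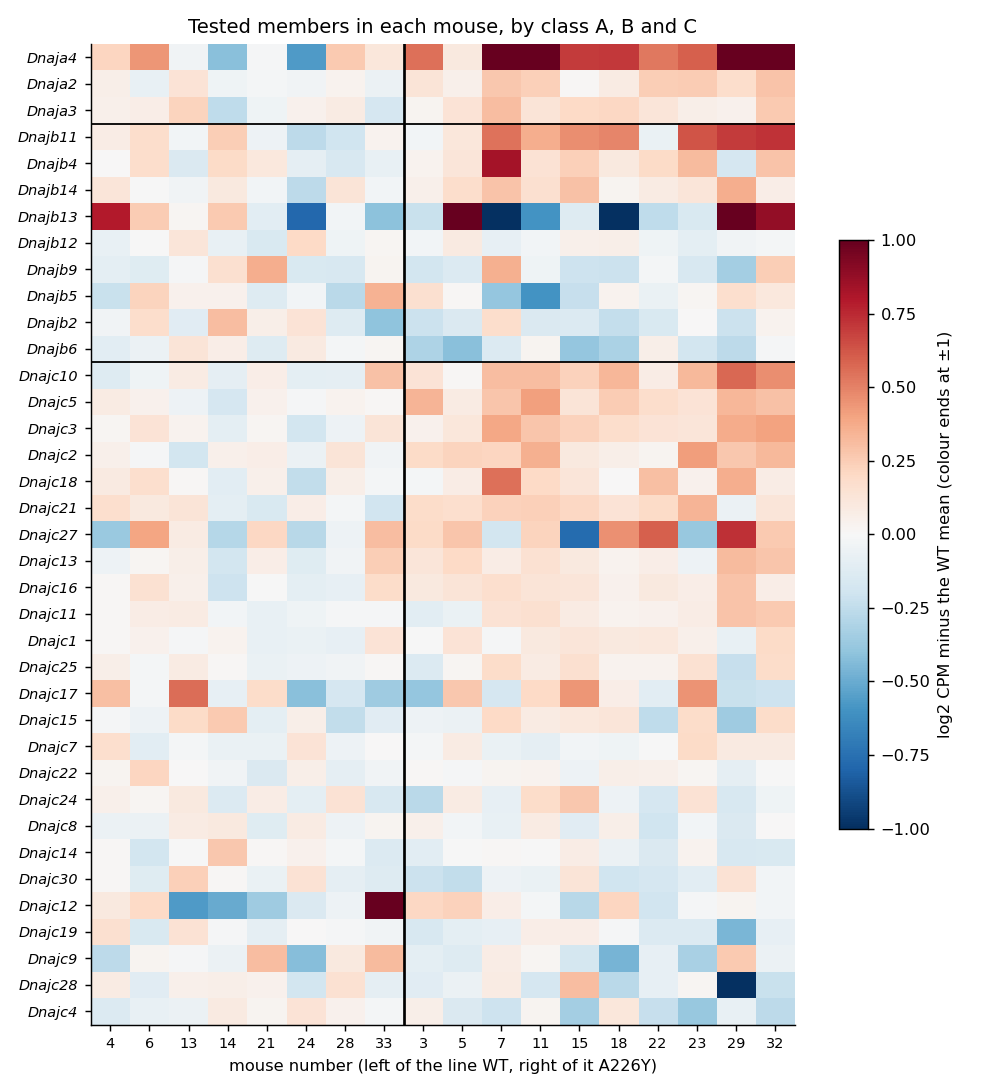
Log2 CPM of each tested member in each mouse, relative to the mean of the WT mice, with WT mice on the left and A226Y mice on the right. *Dnaja4*, *Dnajb11* and *Dnajc10* are red across most A226Y columns. Dark cells include mouse 33 of WT for *Dnajc12*, mouse 29 of A226Y for *Dnajc28*, and several A226Y mice for *Dnajb13*, in both directions.

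In WT liver, levels per kilobase of transcript ran from 60.5 CPM per kb for *Dnajc22*, a membrane protein, to 0.131 CPM per kb for *Dnajb13*. The order continued below *Dnajc22* with *Dnaja2* at 55.0 ± 2.71 (SD over mice), *Dnajc3* at 47.9 ± 3.53 and *Dnaja3* at 47.2 ± 4.81 CPM per kb. *Dnajc3* and *Dnaja3* differed by less than their spread, as did *Dnajb11* (27.1 ± 3.22) and *Dnajb9* (26.5 ± 3.53), the next in order. *Dnaja4* stood at rank 33 of 37, at 2.02 ± 0.451 CPM per kb. The members called higher thus included both abundant and scarce transcripts, and their median WT level was 47.8 CPM against 26.5 CPM for the tested members not called. Their median transcript length of 2961 bases was close to the 3025 bases of the others and to the 3076 bases of all tested genes, and their median GC content was 45.8% against 48.8% and 50.2%.

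The ER members work on BiP and its clients. *Dnajb11* (ERdj3, chromosome 16 of GRCm38, 22857845 to 22879634) binds unfolded chains and passes them to BiP. It was measured at 64.4 CPM in the lowest A226Y mouse, 93.9 in the median and 111.7 in the highest, and at 56.4, 67.8 and 80.3 CPM in WT. In 7 of 10 A226Y mice it was above every WT mouse, and the lowest A226Y mice lay within the WT range. *Dnajb11* rose by a log2 fold change of 0.41 (standard error, SE, 0.11, adjusted p = 0.0173 with edgeR). With 4 surrogate variables it was at 0.28, without a call (adjusted p = 0.0587 with edgeR).

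*Dnajc3* (p58IPK, chromosome 14, 118937976 to 118981697) is a lumenal BiP co-chaperone that is also known as an inhibitor of eIF2α kinases. It had the highest CPM of the family, with 253.6, 282.2 and 324.2 CPM as the lowest, median and highest A226Y values and 216.2, 248.5 and 269.5 CPM in WT. Each A226Y mouse exceeded the WT mean, and 6 exceeded every WT mouse. *Dnajc3* rose by 0.23 on the log2 scale (SE 0.07, adjusted p = 0.0253 with edgeR). The call was lost with an offset for transcript length (0.18) or for GC content (0.17), with 4 surrogate variables (0.13), and without mouse 14 or mouse 24 of WT (adjusted p up to 0.0563 with edgeR).

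*Dnajc10* (ERdj5, chromosome 2, 80315466 to 80354043) is a disulfide reductase that opens misfolded chains for removal from the ER. Its values were 28.1, 34.6 and 41.7 CPM in A226Y and 25.6, 26.7 and 34.4 CPM in WT. All 10 A226Y mice exceeded the WT mean, and the highest WT mouse lay just below the A226Y median. *Dnajc10* rose by 0.28 (SE 0.08, adjusted p = 0.0179 with edgeR), and with 4 surrogate variables in the fit it was the sole member still called, at 0.25. With the GC offset its call was lost (0.24, adjusted p = 0.0553 with edgeR).

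The remaining ER members, *Dnajb9* and *Dnajc1*, were not called. *Dnajb9* (ERdj4, chromosome 12, 44205559 to 44210326), which targets misfolded proteins for degradation and holds back the UPR sensor IRE1, is itself a UPR target. It was at 51.1, 58.2 and 82.6 CPM in A226Y and at 57.8, 62.2 and 82.9 CPM in WT, and 2 of 10 A226Y mice exceeded the WT mean. Its log2 fold change was −0.07 (SE 0.09, adjusted p = 0.675 with edgeR), which became −0.12 without mouse 7 of A226Y, −0.00893 without mouse 21 of WT and −0.15 with the GC offset. *Dnajc1* (ERdj1), an ER membrane protein that binds ribosomes, was at 34.3 to 41.5 CPM in A226Y and 34.2 to 39.9 CPM in WT. Its log2 fold change was 0.07 (SE 0.04, adjusted p = 0.298 with edgeR). That value was 0.01 with the length offset and 0.12 with counts scaled by library size alone, without a call in either fit.

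Whether the ER members moved apart was tested on the log2 ratio of each pair within a mouse, for all 10 pairs, with two-sided exact permutation tests adjusted over the pairs. Relative to *Dnajb9*, *Dnajb11* was higher by 0.46 in A226Y than in WT, *Dnajc10* by 0.35 and *Dnajc3* by 0.30 (exact permutation test, adjusted p = 0.0158, 0.0171 and 0.0158). Relative to *Dnajc1*, the same members were higher by 0.32, 0.21 and 0.15 (exact permutation test, adjusted p = 0.0325, 0.0345 and 0.0325). Among *Dnajb11*, *Dnajc3* and *Dnajc10* themselves, no ratio passed the test, with differences of 0.17 for *Dnajb11* over *Dnajc3*, 0.12 for *Dnajb11* over *Dnajc10* and −0.05 for *Dnajc3* over *Dnajc10*. The ratio of *Dnajb9* to *Dnajc1* differed by −0.14 (exact permutation test, adjusted p = 0.22). When each mouse was left out in turn, the 3 ratios to *Dnajb9* passed the threshold in all 18 repeats of the exact permutation test (adjusted p up to 0.0322). The ratios to *Dnajc1* were less stable. Those of *Dnajb11* and *Dnajc3* passed in 12 of the 18 repeats each and that of *Dnajc10* in 7, with adjusted p up to 0.0699 by exact permutation test. All 3 were lost without mouse 11, 29 or 32 of A226Y or mouse 24 or 28 of WT, that of *Dnajb11* also without mouse 23 of A226Y, that of *Dnajc3* also without mouse 14 of WT, and that of *Dnajc10* also without mouse 7, 18 or 23 of A226Y or mouse 4, 6 or 14 of WT. The ratio of *Dnajb9* to *Dnajc1* passed without mouse 7 of A226Y (−0.20, adjusted p = 0.0327 by exact permutation test). The ratio of *Dnajb11* to *Dnajc3* passed without mouse 14 of WT or mouse 22 of A226Y. Taken from the fit with 4 surrogate variables, with no test, the differences to *Dnajb9* were 0.33 for *Dnajb11*, 0.30 for *Dnajc10* and 0.18 for *Dnajc3*. The differences to *Dnajc1* in that fit were 0.20, 0.17 and 0.05 in the same order. The trio was thus higher relative to *Dnajb9* in each of these comparisons. Its distance from *Dnajc1* stayed positive, but its size varied with the fit, and passing the threshold depended on single mice.

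BiP itself was not called. *Hspa5* was at 350.4, 516.7 and 807.0 CPM in the lowest, median and highest A226Y mouse and at 379.4, 455.2 and 591.5 CPM in WT, so that the A226Y mice extended the range at both ends. Its log2 fold change was 0.24 (SE 0.15, adjusted p = 0.298 with edgeR), and with 4 surrogate variables 0.14. Across the 18 mice, *Dnajb11* followed *Hspa5* with r = 0.828 and rho = 0.806 on log2 CPM (permutation test, adjusted p = 0.0002 and 0.00075 over 5 relations). For *Dnajc10* the values were r = 0.697 and rho = 0.626 (permutation test, adjusted p = 0.0039 and 0.0165), and for *Dnajc3* r = 0.662 and rho = 0.591 (permutation test, adjusted p = 0.00445 and 0.0184). *Dnajb9* had r = 0.35 and rho = 0.197 (permutation test, adjusted p = 0.192 and 0.537), and *Dnajc1* had r = 0.055 and rho = 0.106 (permutation test, adjusted p = 0.826 and 0.672).

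Within the genotypes the relations were uneven. In the A226Y mice alone, r was 0.929 for *Dnajb11*, 0.884 for *Dnajc10* and 0.844 for *Dnajc3* (permutation test, adjusted p = 0.00095, 0.00197 and 0.00533), 0.259 for *Dnajb9* and −0.246 for *Dnajc1*. In the WT mice alone, *Dnajb9* had r = 0.862 and rho = 0.833 (exact permutation test, adjusted p = 0.0233 and 0.0769), and r was 0.645 for *Dnajb11*, 0.253 for *Dnajc10*, 0.225 for *Dnajc3* and 0.24 for *Dnajc1*. A difference in r between the genotypes was not tested. Without mice 29 and 32 of A226Y, the 2 farthest from the median of *Hspa5*, *Dnajb11* kept r = 0.737 (permutation test, adjusted p = 0.00725) and *Dnajb9* had r = 0.602 (permutation test, adjusted p = 0.0322), with rho = 0.321. For *Dnajc10* (r = 0.482) and *Dnajc3* (r = 0.467) the adjusted p was then 0.0865 by permutation test. These relations thus stayed positive in the 16 mice left and did not pass the threshold there.

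**Figure D3:**
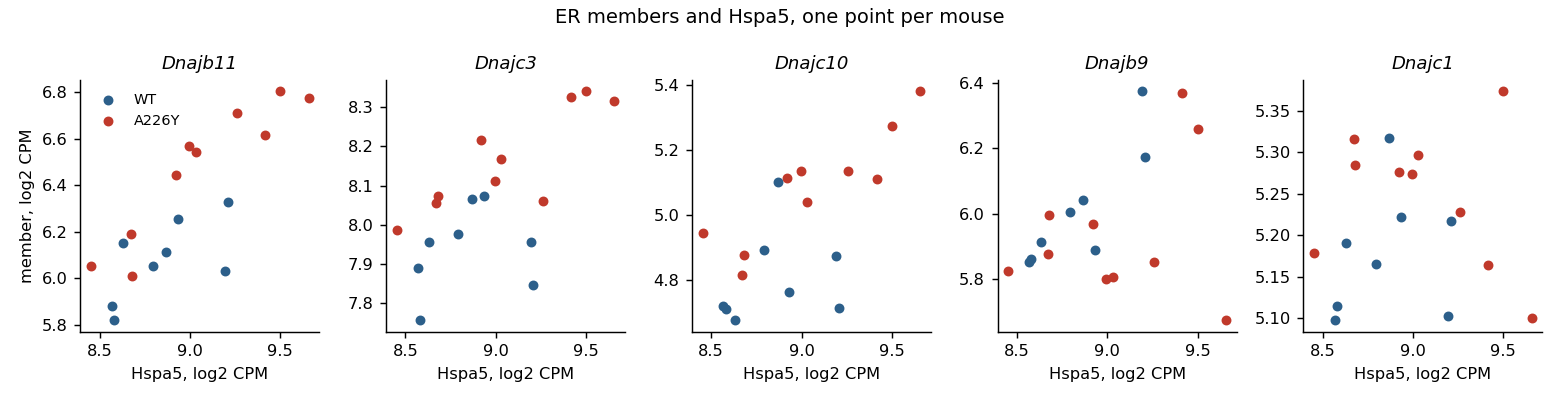
Log2 CPM of each ER member against log2 CPM of *Hspa5* (the gene of BiP), 1 point per mouse. The points of *Dnajb11*, *Dnajc3* and *Dnajc10* rise to the right in A226Y mice, while those of *Dnajc1* show no slope (r = 0.055 over 18 mice).

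In the cytosol, the largest change of the family was that of *Dnaja4* (chromosome 9, 54698873 to 54716315), a class A folding factor known as a target of the sterol regulator SREBP as well as of heat shock. It was at 6.33, 9.64 and 13.8 CPM in the lowest, median and highest A226Y mouse and at 3.995, 6.14 and 8.06 CPM in WT. All A226Y mice but 1 were above every WT mouse. *Dnaja4* rose by 0.77 (SE 0.15, adjusted p = 0.00389 with edgeR), or 70.4%. The fit with 4 surrogate variables gave 0.34, without a call.

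*Dnaja2* (chromosome 8, 85537633 to 85555344), a general co-chaperone of the constitutive Hsp70 encoded by *Hspa8*, ranged from 161.4 to 195.0 CPM in A226Y (median 185.0) and from 152.6 to 175.7 CPM in WT (median 157.2). None of the 10 A226Y mice fell below the WT mean. It rose by 0.18 (SE 0.05, adjusted p = 0.0326 with edgeR). Leaving out any 1 of 7 mice (7, 11, 22 or 32 of A226Y, or 14, 21 or 24 of WT) took its adjusted p above 0.05, to at most 0.06. The call was also lost without the filter on low counts (adjusted p = 0.0532 with edgeR), with 4 surrogate variables (0.14) and with the GC offset, which gave 0.11 (adjusted p = 0.171 with edgeR).

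Of the other cytosolic folding factors, *Dnajb4* and *Dnajb6* had an unadjusted p < 0.05 and were not called. *Dnajb4*, a heat-inducible relative of *Dnajb1*, was at 40.1 to 80.2 CPM in A226Y and at 40.4 to 51.5 CPM in WT, with a log2 fold change of 0.23 (adjusted p = 0.132 with edgeR). Its highest value came from mouse 7, and without that mouse the log2 fold change was 0.14. The GC offset gave 0.13 and the 4 surrogate variables 0.12. *Dnajb6*, known for keeping polyglutamine proteins from aggregating, was at 7.51 to 10.5 CPM in A226Y and 9.21 to 10.96 CPM in WT, with a log2 fold change of −0.19 (adjusted p = 0.0924 with edgeR). *Dnajb2*, *Dnajb5* and *Dnajc7* had log2 fold changes of −0.11, −0.07 and 0.02 and an unadjusted p above 0.05.

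Of the 3 members listed for the ribosome and its assembly path, 2 were called. *Dnajc2* (MPP11, chromosome 5, 21757267 to 21785251) forms the ribosome-associated complex with an Hsp70 partner and meets chains as they leave the ribosome. It was at 18.6, 21.4 and 24.5 CPM in the lowest, median and highest A226Y mouse and at 16.1, 18.6 and 20.1 CPM in WT, with 7 of 10 A226Y mice above every WT mouse. Its log2 fold change was 0.22 (SE 0.06, adjusted p = 0.0183 with edgeR), and with the GC offset it was 0.17 and with 4 surrogate variables 0.18, without a call in either fit.

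*Dnajc21* (chromosome 15, 10446756 to 10470516), which takes part in the maturation of the large ribosomal subunit, was at 26.4, 31.3 and 34.6 CPM in A226Y and at 24.02, 27.9 and 30.8 CPM in WT. Its log2 fold change of 0.17 (SE 0.06, adjusted p = 0.0487 with edgeR) was the weakest call. It was lost with RLE scaling (adjusted p = 0.0503 with edgeR), without the filter on low counts (0.0753), with limma-voom (0.0524), with the GC offset (0.14, adjusted p = 0.0974) and with 4 surrogate variables (0.11, adjusted p = 0.328). Of the 18 fits that left out 1 mouse it was kept in 4, those without mouse 29 of A226Y or mouse 4, 6 or 13 of WT, and lost without any of the others (adjusted p up to 0.0989 with edgeR). *Dnajc24*, an enzyme factor of diphthamide synthesis on the elongation factor eEF2, was at 4.28 to 6.19 CPM in A226Y and 4.62 to 5.69 CPM in WT, with a log2 fold change of −0.00364.

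On vesicles, *Dnajc5* (chromosome 2, 181520485 to 181555133), the cysteine string protein of secretory vesicles, varied by 5.20% (coefficient of variation) among the WT mice. It was at 71.2, 81.1 and 89.7 CPM in the lowest, median and highest A226Y mouse and at 60.2, 68.7 and 71.5 CPM in WT. In 9 of 10 A226Y mice it was above every WT mouse, and the remaining A226Y mouse was just below the highest WT mouse. *Dnajc5* rose by 0.24 (SE 0.05, adjusted p = 0.00569 with edgeR), and by an exact permutation test on log2 CPM the unadjusted p was 9.14e-05. For the other called members the exact permutation test gave an unadjusted p between 0.000457 (*Dnaja4*) and 0.00786 (*Dnajc21*). The length offset lowered the log2 fold change of *Dnajc5* to 0.16, still past the threshold. Its call was lost with 4 surrogate variables (0.17, adjusted p = 0.147 with edgeR). *Dnajc13*, an endosomal protein, had a log2 fold change of 0.13 and an unadjusted p of 0.0472 (edgeR).

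**Figure D4:**
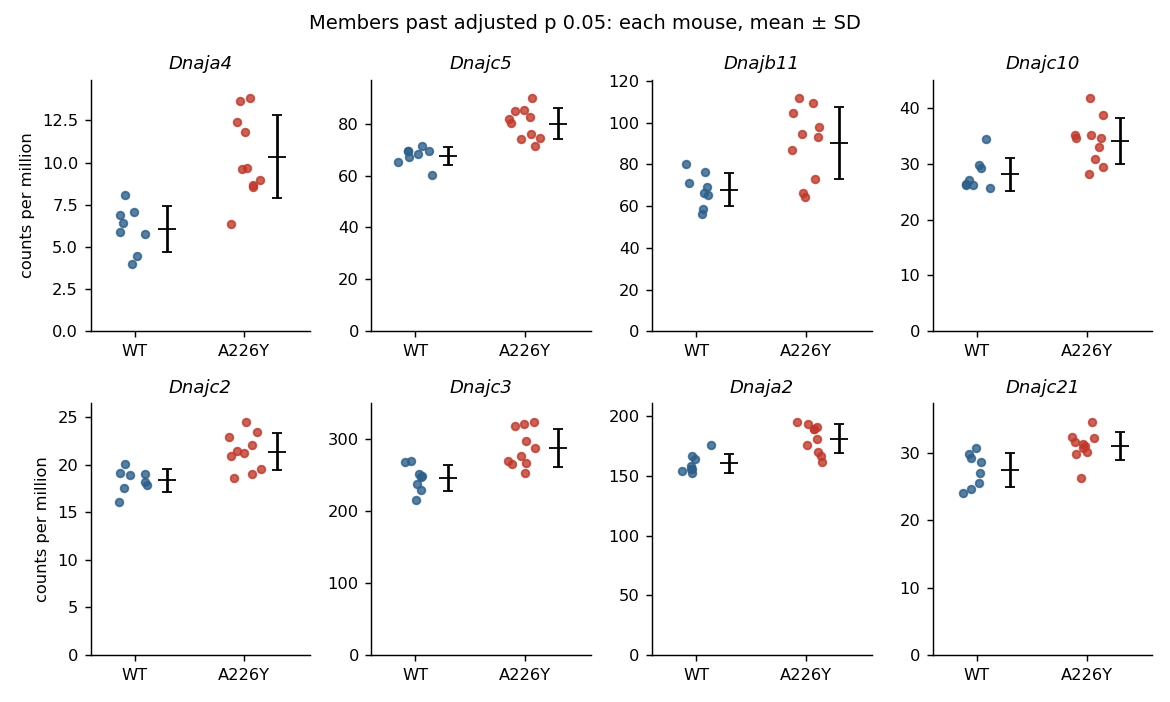
CPM in each mouse for the 8 members past adjusted p < 0.05, with the mean and SD of each genotype beside the points. In each panel the A226Y points sit higher and the ranges of A226Y and WT overlap.

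Some ER membrane proteins whose J domain faces the cytosol, *Dnajb12* and *Dnajb14* among them, serve the disposal of ER proteins. *Dnajb14* was at 27.6 to 34.8 CPM in A226Y and 22.6 to 29.6 CPM in WT, with a log2 fold change of 0.16 (adjusted p = 0.0716 with edgeR). *Dnajc18* had a log2 fold change of 0.18 (adjusted p = 0.147 with edgeR), at 9.30 to 13.8 CPM in A226Y and 7.93 to 10.6 CPM in WT. *Dnajb12* and *Dnajc14* were at −0.02 and −0.05. Where counts were scaled by library size alone, *Dnajb14* was called at 0.20 (adjusted p = 0.0425 with edgeR), whereas the length offset took it to 0.03 (adjusted p = 0.827 with edgeR) and the GC offset to 0.10. With 4 surrogate variables *Dnajc18* was at 0.04.

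In mitochondria, *Dnaja3* (Tid1), the partner of the mitochondrial Hsp70 encoded by *Hspa9*, was at 126.8 to 154.4 CPM in A226Y and 104.6 to 144.9 CPM in WT. Each of the 10 A226Y mice exceeded the WT mean, with a log2 fold change of 0.14 (unadjusted p = 0.033, adjusted p = 0.129 with edgeR). With 4 surrogate variables it was 0.05. *Dnajc11*, *Dnajc15*, *Dnajc19* and *Dnajc30* had log2 fold changes of 0.10, 0.02, −0.10 and −0.08, none past an unadjusted p of 0.05. *Dnajc19*, a factor of the inner membrane import motor, was called lower in the fit with the GC offset alone, at −0.19 (adjusted p = 0.0307 with edgeR).

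Among the nuclear members, *Dnajc8*, *Dnajc9* and *Dnajc17* had log2 fold changes between −0.11 and 0.03. The members outside the compartment lists ran from −0.14 (*Dnajc4*) to 0.17 (*Dnajc27*), and *Dnajc16* was the one of them with an unadjusted p < 0.05, at 0.12 (adjusted p = 0.149 with edgeR). It was called with library-size scaling (0.16, adjusted p = 0.0492), and was at 0.04 with the length offset (adjusted p = 0.561) and at 0.06 with 4 surrogate variables. *Dnajc12* varied most among the WT mice of all members above 1 CPM. Its values were 10.5 to 38.6 CPM in WT and 12.8 to 18.1 CPM in A226Y. *Dnajc22* was at 94.6 ± 2.99 CPM in A226Y (SD, n = 10) and at 94.6 ± 7.25 CPM in WT (SD, n = 8).

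Of 13 tested Hsp70 genes, 0 were called by edgeR, by DESeq2 or by limma-voom, 2 had an unadjusted p < 0.05 and a positive sign, and 12 had positive fold changes. The 2 are 15.4% of the list, close to the 14.9% of all genes. The 0 called stand beside 7.27% of all genes called higher, a share that gives few calls in a list of 13 genes. Positive fold changes were found for 6549 of all 13353 genes tested. The median log2 fold change of the Hsp70 list was 0.16, beside 0.05 for the tested DnaJ members and −0.00443 over all genes. The list was not tested as a set. *Hspa8* was at 157.1 to 307.7 CPM in A226Y and 170.1 to 218.5 CPM in WT (log2 fold change 0.12, adjusted p = 0.441 with edgeR). Without mouse 7 of A226Y the value was 0.04, and with 4 surrogate variables 0.0084. *Hspa9* was at 467.5 to 651.1 CPM in A226Y and 442.6 to 554.8 CPM in WT (log2 fold change 0.16, adjusted p = 0.119 with edgeR), and was at 0.04 with 4 surrogate variables. Without mouse 29 of A226Y it was called, at 0.19 (adjusted p = 0.0335 with edgeR). *Hspa1a* was too low to test, and its reads may be shared with the near-identical *Hspa1b*, which was not called. The members left out by the rule, *Dnaja1* and *Dnajb1*, were at 0.10 and −0.03 (adjusted p = 0.469 and 0.893 with edgeR). *Dnaja1* was at 0.02 with the GC offset, at 0.03 with the length offset and at 0.04 to 0.13 when each mouse was left out.

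Across 35 tested partner genes, 1 was called higher and 3 lower by edgeR, and 6 were higher and 3 lower at an unadjusted p < 0.05. The higher partners were 2.86% and 17.1% of those tested, beside 7.27% and 14.9% of all genes. The lower partners were 8.57% at both thresholds, beside 7.03% and 14.7% of all genes. The higher calls were 2 with DESeq2 or library-size scaling (*Bag4* and *Sec63*) and with the length or GC offset (*Bag4* and *Hspbp1*), and the lower calls were 2 with library-size scaling and either offset. With 4 surrogate variables no partner was called in either direction. *Sil1*, a nucleotide exchange factor of BiP, was at 46.0 to 54.5 CPM in A226Y and 52.2 to 61.9 CPM in WT, and fell by 0.23 on the log2 scale (SE 0.04, adjusted p = 0.00387 with edgeR). All 10 A226Y mice were below the WT mean. The call was lost with 4 surrogate variables (−0.18, adjusted p = 0.0943 with edgeR). *Hyou1*, the other exchange factor of BiP, had a log2 fold change of 0.30 (adjusted p = 0.195 with edgeR). It was 0.19 without mouse 29 of A226Y and 0.09 with 4 surrogate variables. *Hscb*, the mitochondrial J-domain protein of iron-sulfur cluster assembly, was at 2.12 to 3.69 CPM in A226Y and 3.43 to 5.30 CPM in WT, and fell by 0.56 (SE 0.11, adjusted p = 0.00476 with edgeR). With 4 surrogate variables its log2 fold change was −0.35, without a call (adjusted p = 0.157 with edgeR). No member of the family had a log2 fold change as low, the lowest being −0.19 for *Dnajb6*.

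*Timm44*, which anchors mitochondrial Hsp70 at the import channel, fell by 0.20 (SE 0.05, adjusted p = 0.0197 with edgeR). It was at 36.8 to 50.01 CPM in WT and at 35.4 to 41.7 CPM in A226Y. Its call was lost with library-size scaling alone (−0.16), with the length offset (−0.14), with the GC offset (−0.16) and with 4 surrogate variables (−0.19). *Bag4*, a BAG-domain regulator of cytosolic Hsp70, rose by 0.39 (SE 0.10, adjusted p = 0.0134 with edgeR). It was at 36.0 to 54.1 CPM in WT and 41.3 to 66.7 CPM in A226Y, and 9 of 10 A226Y mice were above every WT mouse. With 4 surrogate variables *Bag4* was at 0.24, without a call (adjusted p = 0.125 with edgeR). *Sec63*, the J-domain protein of the ER translocon, had a log2 fold change of 0.14, and each A226Y mouse exceeded the WT mean (adjusted p = 0.0568 with edgeR). It was called with DESeq2 (adjusted p = 0.0101), with library-size scaling (0.18, adjusted p = 0.0185 with edgeR) and without mouse 5 or 29 of A226Y or mouse 6 of WT. With the length offset it was at 0.07, and with the GC offset or 4 surrogate variables at 0.08.

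A property of the libraries moved with genotype beside these changes. The median log2 level of the longest 25% of genes minus that of the shortest 25%, centred over mice, was between −0.04 and 0.22 in A226Y and between −0.23 and 0.03 in WT. With a length offset 7 members (18.9%) were called higher, beside 5.71% of all genes tested in that fit. With the GC offset the members still called were *Dnaja4*, *Dnajb11* and *Dnajc5*. The 4 surrogate variables, which left *Dnajc10* as the sole call, also reduced the calls over all genes from 1910 to 248. The log2 fold changes of all 8 members stayed positive in these fits, and the part of library composition in the result was not tested beyond them.

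**Figure D5:**
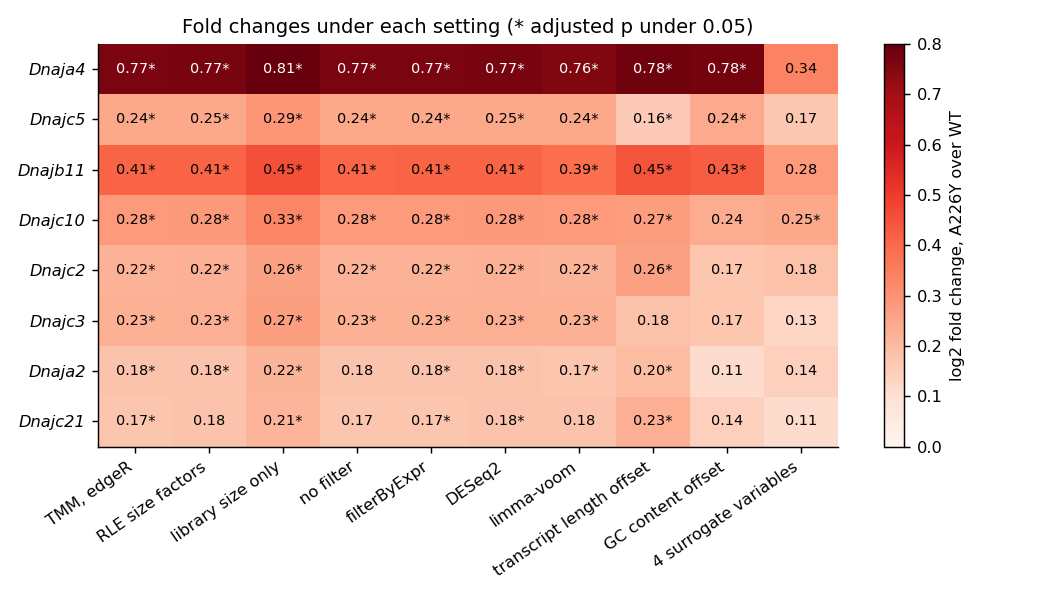
Log2 fold change, A226Y over WT, of the 8 members in the edgeR fit with TMM scaling and under 9 other settings, where an asterisk marks an adjusted p < 0.05. All values are above 0, and asterisks are fewest in the column of the 4 surrogate variables.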

How the data were processed

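Liver RNA of 10 A226Y and 8 WT female mice was analysed, with groups taken from the genotype in the sample labels. The authors deposited whole-number read counts per Ensembl gene for each mouse, without normalization. The paper names RSEM with an Ensembl annotation and GRCm37, whereas the submitters' processing notes list fastp, STAR, featureCounts and GRCm38; which of these made the counts is not given in the sources used here. The strand setting is not given either, so overlapping genes cannot be told apart. Symbols, lengths and coordinates came from GENCODE M21 (GRCm38), which named 22214 of 22524 identifiers.

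Genes reaching 10 counts in 50% or more of the mice of either genotype (13353) were scaled with TMM and compared with the quasi-likelihood test of edgeR 4.0.16 in R 4.3.3, without covariates, and p-values were adjusted over all of them by Benjamini-Hochberg. The standard error is the log2 fold change divided by the square root of F. CPM use TMM library sizes, and log2 CPM for exact permutation tests (two-sided, all 43758 divisions of the mice, smallest p 4.57e-05) and for correlations (100000 permutations, all orders for 8 mice) use a prior count of 2. The 18 mice were treated as separate animals, and same-genotype libraries differed by a chi-square of at least 19.7 per degree of freedom. Total counts of 23850565 or more per mouse leave the spread between mice as the main error for members with many counts. Counting error also matters for the scarcest tested members, *Dnajb13* (4 to 26 counts per mouse) and *Dnajc27* (15 to 43).

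The members and gene lists were chosen with earlier results of these data known. Named are the members past adjusted p < 0.05, the ER members, the 3 highest by CPM, the next 5 by p, *Hspa5*, *Hspa8*, *Hspa9*, called partners, *Dnaja1* and *Dnajb1*. Other members are named to account for each list, and *Hyou1* and *Sec63* were added after their values were seen. Partner genes not named are given by counts only. Alternatives were RLE or library-size scaling, other filters, DESeq2 1.42.0, limma-voom 3.58.1, 4 surrogate variables (sva 3.50.0), lowess offsets on length or GC content, a prior of 0.5, and leaving out each mouse. The ratio tests of the ER members were not planned, and repeating them without each mouse was chosen after seeing the data. The fits were also run on simulated counts, and the outcome is not reported here. Promoters came from the RefSeq table of GRCm38.p6.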

Additional observations from a re-analysis of the deposited data

Results flagged for a closer look

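Each of the 37 tested members was examined in each genotype (74 groups of 8 or 10 mice) for a highest or lowest mouse whose gap to the next one took up an unusually large part of the group's range, and 6 were found. About 1 in 20 such groups is marked by chance. *Dnajb4* was at 80.2 CPM in mouse 7 of A226Y, where the next mouse had 56.1 CPM, and without mouse 7 its log2 fold change moved from 0.23 to 0.14. *Dnajb14* was at 22.6 CPM in mouse 24 of WT, where the next lowest had 26.4 CPM, and its log2 fold change went from 0.16 to 0.13 without that mouse. *Dnajc12* was at 38.6 CPM in mouse 33 of WT, and the next mouse had 17.8 CPM. Without mouse 33 the log2 fold change of *Dnajc12* went from −0.10 to 0.19 (adjusted p = 0.242 with edgeR), so its direction is set by that mouse.

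The other 3 came from mouse 29 of A226Y, which also had the highest *Hspa5* level. *Dnajc16* was at 23.7 CPM there, above the next mouse at 21.9 CPM. *Dnajc19* was at 29.2 CPM, below the next mouse at 35.8 CPM, and *Dnajc28* was at 6.32 CPM, below the next mouse at 11.5 CPM. Without mouse 29 the log2 fold changes were 0.10 for *Dnajc16*, −0.07 for *Dnajc19* and −0.05 for *Dnajc28*, and 8 members were called higher, the same 8 as with all mice.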

How the results depend on the processing

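The count of 8 members called higher was 6 to 10 with other scalings, filters, DESeq2, limma-voom and the length offset, 3 with the GC offset and 1 with 4 surrogate variables. Those 3 are 8.11% of the members beside 6.14% of all genes higher in that fit, and the 1 is 2.70% beside 0.839%. The count was 5 to 8 when each mouse was left out, and 5 without mouse 14 or mouse 24 of WT. The count called lower was 0 in all these fits except 1 (*Dnajc19*) with the GC offset. At an unadjusted p < 0.05, 14 members were higher with all mice, 10 to 14 without a mouse, and 7 with 4 surrogate variables. The 1 member lower at an unadjusted p < 0.05 became 0 with library-size scaling or 4 surrogate variables, 2 with the GC offset, and 1 to 2 without a mouse. The median log2 fold change of the members was 0.03 to 0.09 in all fits. Library-size scaling moved the median of all genes from −0.00443 to 0.0387. The log2 fold change of *Dnajb1* (−0.03) turned to 0.00249 with library-size scaling, to 0.0086 with the GC offset, to 0.021, 0.00309 and 0.0027 without mouse 14 of WT or mouse 15 or 23 of A226Y, with a range of −0.15 to 0.021 without a mouse. The cause of these shifts was not tested. No paired analysis was possible because the groups share no mouse numbers.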
